A study of Mus musculus with 6 samples.

Results

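The D cyclins (Ccnd1, Ccnd2, Ccnd3), their kinase partners Cdk4 and Cdk6 and the Cip/Kip inhibitors (Cdkn1a, Cdkn1b, Cdkn1c) are 8 of the 17418 genes counted in single cells of the mouse cerebral cortex. They were chosen by a measured value: Ccnd2 was higher in ganglionic cells of Fmr1-KO mice, so every genotype value in ganglionic cells is given here as a description, without a test. InDrop, a droplet method that tags each transcript with a unique molecular identifier (UMI), was run on dissociated cortex of postnatal day 5 mice, 3 per genotype and of both sexes. WT mice were FVB.129P2-Pde6b+ Tyrc-ch/AntJ, and Fmr1-KO mice carried the Fmr1tm1Cgr allele on that background, a germline allele, so no cell type was targeted in particular. WT 1, Fmr1-KO 1 and Fmr1-KO 2 were captured on bead version V2, and WT 2, WT 3 and Fmr1-KO 3 on V3.8. The cell annotation writes V3 where the sample labels write V3.8, and these were taken as the same. Bead version changed with the collection batch.

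D cyclins rise in response to growth factors and bind Cdk4 or Cdk6. The complexes phosphorylate the retinoblastoma protein, which frees E2F factors to switch on the genes of DNA replication. Cip/Kip proteins bind cyclin and kinase complexes and restrain those of Cdk2, and Cdkn1a (p21) is also a transcriptional target of p53, while Cdkn1b (p27) accumulates in cells that leave the cycle. In the developing brain Ccnd2 is known from neural progenitors.

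In the mm10 annotation (GENCODE vM21) Ccnd1 spans chr7:144929931-144939925 and Ccnd2 chr6:127125162-127152193 on the minus strand, and Ccnd3 chr17:47505051-47599691 on the plus strand. Cdk4 spans chr10:127063534-127067920 and Cdk6 chr5:3341485-3531008, both on the plus strand. Of the inhibitors, Cdkn1a (chr17:29090976-29100727) and Cdkn1b (chr6:134920401-134925513) are on the plus strand and Cdkn1c (chr7:143458339-143461050) is on the minus strand. RefSeq's promoter table for GRCm38.p6, the mm10 build, covers 250 bases before to 50 after a start site and held 5 of the members (Cdk4, Cdk6, Cdkn1a, Cdkn1b, Ccnd3). The promoters of Cdk4 and Cdkn1b are shown because Cdk4 was called between cells with and without division transcripts, and Cdkn1b between phase classes of ganglionic cells, in the comparisons that follow. Cdkn1a was also called between cells with and without division transcripts, in endothelial cells, and its promoters are not shown. Capitals mark the E-box CACGTG in Cdk4 (chr10:127063285-127063584, plus strand) and CCAAT or its reverse complement ATTGG in Cdkn1b (chr6:134920151-134920450, plus strand), both strands searched.
Cdk4: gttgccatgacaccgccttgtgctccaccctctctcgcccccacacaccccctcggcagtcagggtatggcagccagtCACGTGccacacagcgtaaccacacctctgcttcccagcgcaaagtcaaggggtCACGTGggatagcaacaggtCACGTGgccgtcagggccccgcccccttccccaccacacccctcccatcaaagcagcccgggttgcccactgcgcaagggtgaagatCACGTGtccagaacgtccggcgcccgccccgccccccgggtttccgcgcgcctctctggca
Cdkn1b: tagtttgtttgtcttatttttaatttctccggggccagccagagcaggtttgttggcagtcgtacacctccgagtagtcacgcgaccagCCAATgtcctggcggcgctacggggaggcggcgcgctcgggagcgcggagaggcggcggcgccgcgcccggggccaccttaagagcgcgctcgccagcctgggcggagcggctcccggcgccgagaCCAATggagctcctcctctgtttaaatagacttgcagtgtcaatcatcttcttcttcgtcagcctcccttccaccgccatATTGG

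The Cdk4 promoter held 4 E-boxes, the sequence that Myc and related factors bind. At least 1 was found in 7.15% of the 32851 promoters of this length and at least 4 in 0.0244%. The Cdkn1b promoter held 3 CCAAT matches, a count reached by 3.37% of promoters, and 37.4% held at least 1. Both promoters were also searched for the GC box and an E2F motif. Cdk4 held 3 GC boxes, a count reached by 10.7% of promoters, and Cdkn1b held 1. Neither held an E2F match, Cdk4 held no CCAAT match and Cdkn1b no E-box. The promoters of Cdk6, Cdkn1a and Ccnd3 were searched for the same motifs and held no E2F match. Cdk6 held 1 E-box, and Cdkn1a and Ccnd3 held none. A Ccnd3 promoter (chr17:47593217-47593516) held 1 CCAAT match, and none was found in Cdk6 or Cdkn1a. GC boxes were found in Ccnd3 and Cdkn1a and not in Cdk6. The counts for Cdk4 and Cdkn1b come from this wider search. These are letter matches in a window and not measured binding.

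The table held 18393 cells from 17 libraries, of which 1113 marked as doublets were left out, and 17280 cells of 18 subtypes annotated by the study were summed per mouse and subtype. The used cells of a mouse held between 7909181 and 20629134 UMIs in all, and the totals of WT 3 and Fmr1-KO 3 were the highest. Levels are given as CPM, the UMIs of a gene per 1000000 UMIs of the same summed cells; 1 UMI stands for 1 captured 3′ end, so CPM is not divided by gene length. Fmr1 was between 68.4 and 74.1 CPM in the 3 WT mice and between 16.1 and 19.9 in the 3 Fmr1-KO mice; transcripts were counted at their 3′ end, so this does not read the targeted site itself. Of 57 defining markers found, 53 were highest or second highest in the subtype they mark. Libraries of the same mouse shared 1975 cell barcodes, and 90.9% of these barcodes carried a single subtype, so 1 mouse and not 1 library was the replicate; values with 1 cell kept per barcode and mouse are given where they change a call. In summed cells, fewer cells expressing a gene and less RNA per cell cannot be told apart.

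**Figure D1:**
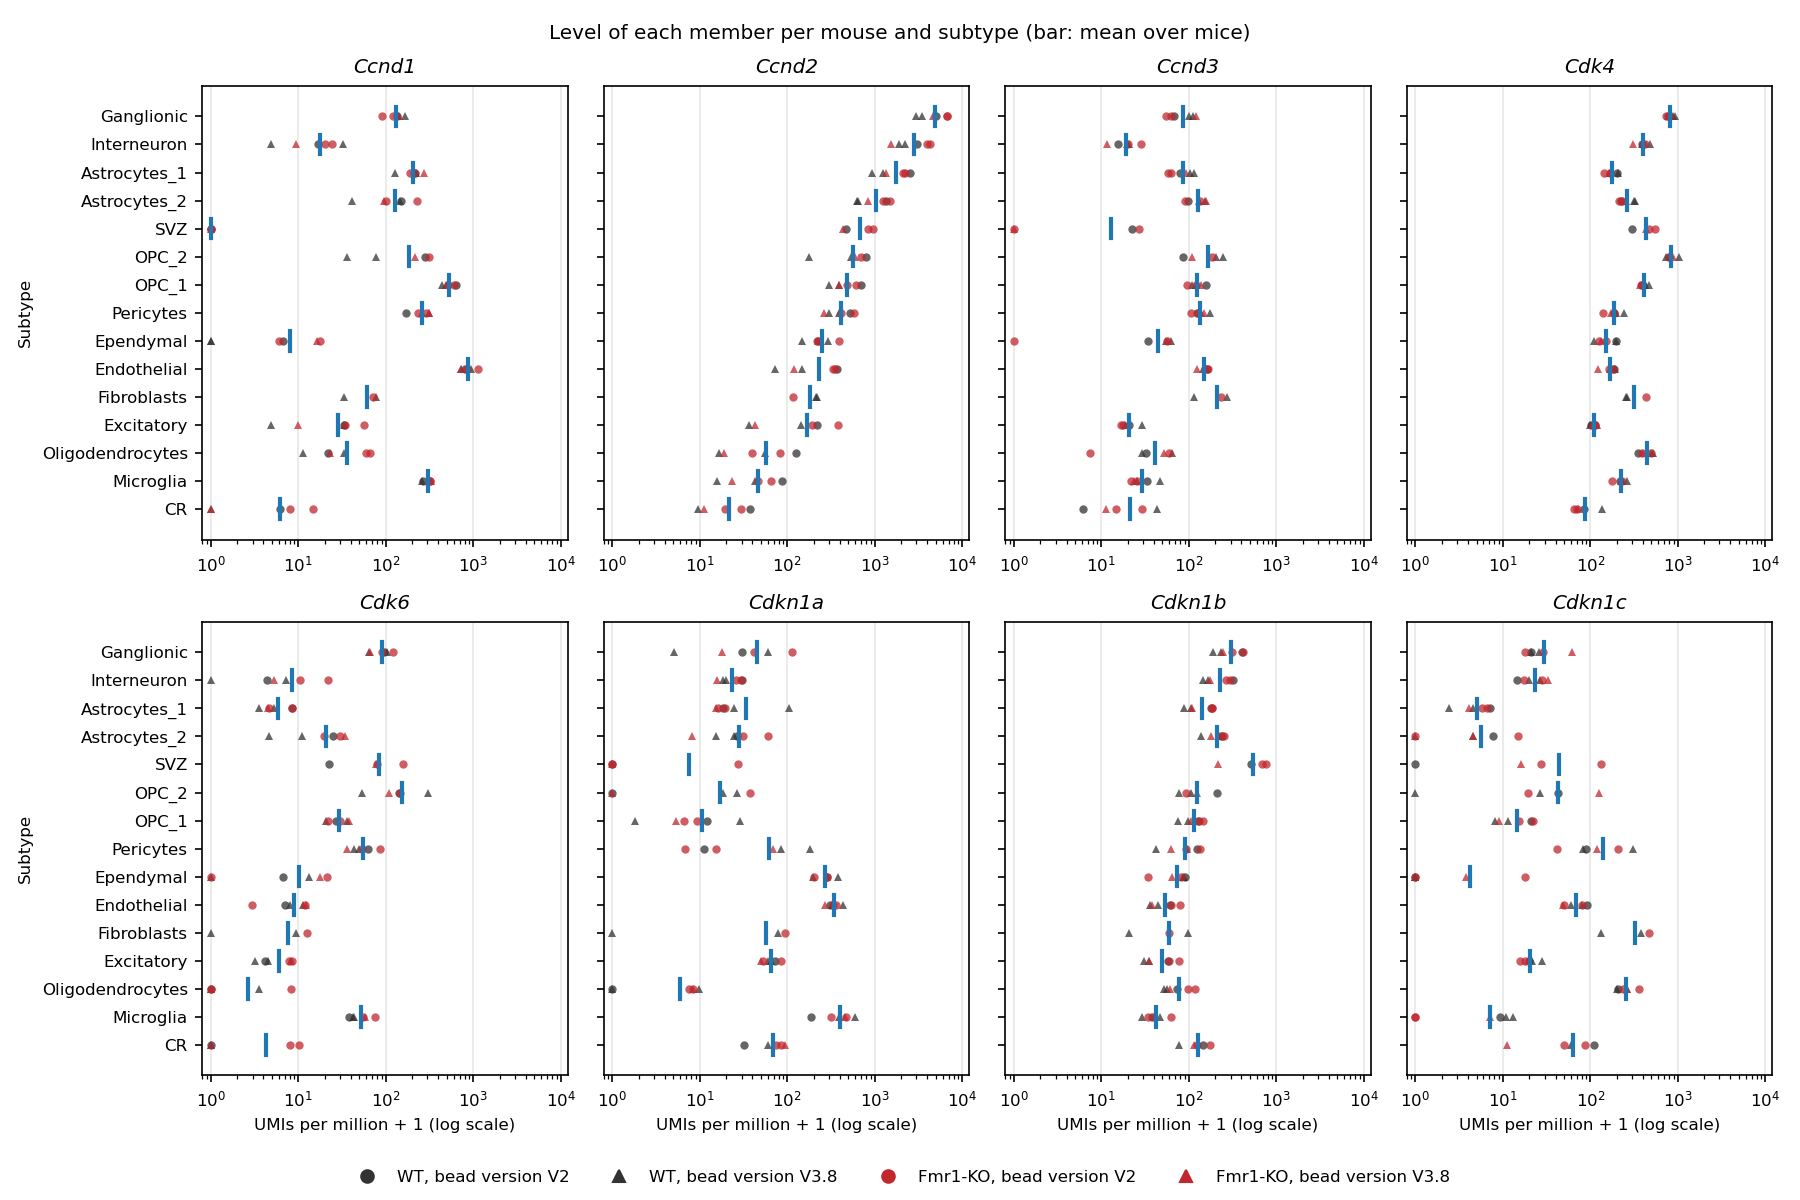
CPM plus 1 (log axis) of each of the 8 genes in the 15 subtypes with 10 or more cells in at least 3 mice. Points are mice, red for Fmr1-KO and dark grey for WT, circles for bead version V2 and triangles for V3.8, and the blue bar is the mean. Ccnd2 falls from 4939 in ganglionic cells to 20.4 in Cajal-Retzius cells, and Ccnd1 is highest in endothelial cells at 865.

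Ccnd2 was the most abundant member by far, and it was highest in the inhibitory lineage. In ganglionic cells, the dividing precursors of interneurons, it reached 4939 ± 1568 CPM (mean ± SD, n = 6 mice), with 5024, 3510 and 2987 in WT 1 to WT 3 and 6696, 6748 and 4671 in Fmr1-KO 1 to Fmr1-KO 3. Immature interneurons followed at 2822 ± 1139 (n = 6), then Astrocytes_1 at 1729 ± 644 and Astrocytes_2 at 1026 ± 373 (n = 6 each). Each of these 3 steps down, and that from Astrocytes_2 to the migrating neurons of the subventricular zone (SVZ, 676 ± 268, n = 4), was in the same direction in every mouse that had both subtypes and larger than its spread. The step from ganglionic cells to interneurons was 0.84 ± 0.37 (SD) on the log2 scale in 6 of 6 mice.

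Below these, Ccnd2 was between 408 and 556 CPM in OPC_2, OPC_1 (oligodendrocyte progenitors) and pericytes, and these neighbours did not differ beyond their spread. OPC_2 is the smaller group of the oligodendrocyte lineage cluster. It was taken as the small group that the paper calls neural stem cells. Of the 3 markers of that group (Dll1, Dbx2, Btg2), 2 were highest in OPC_2. Ccnd2 was 248 in ependymal cells, 232 in endothelial cells, 181 in fibroblasts and 168 in excitatory neurons. Oligodendrocytes (55.4), microglia (45.8) and Cajal-Retzius cells (20.4) had the least.

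Ccnd1 followed a different order. It was highest in endothelial cells at 865 ± 160 CPM (n = 6), at 805, 948 and 720 for WT 1 to WT 3 and 1143, 850 and 726 for Fmr1-KO 1 to Fmr1-KO 3. OPC_1 came next at 531 ± 75.8, ahead of microglia at 300.0 ± 30.1, and both steps were in the same direction in 6 of 6 mice (0.70 ± 0.23 and 0.82 ± 0.29 on the log2 scale). Pericytes (262), Astrocytes_1 (205), OPC_2 (183), ganglionic cells (131) and Astrocytes_2 (126) lay below, and no neighbours among them differed beyond their spread. Neurons other than ganglionic cells held between 0 and 27.6, and SVZ cells held 0 Ccnd1 UMIs of 207719, which allows a level of up to 14.4 CPM by counting error alone (3 UMIs).

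Ccnd3, the D cyclin with the broadest tissue range, was low and flat by comparison, between 11.9 CPM in SVZ cells and 207 in fibroblasts. From fibroblasts down through OPC_2, endothelial cells, pericytes and Astrocytes_2 to OPC_1 (122), no neighbours differed beyond the spread. OPC_1 lay above ganglionic cells (85.4) in 6 of 6 mice. Excitatory neurons (19.6) and interneurons (18.3) were near the floor of the range.

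**Figure D2:**
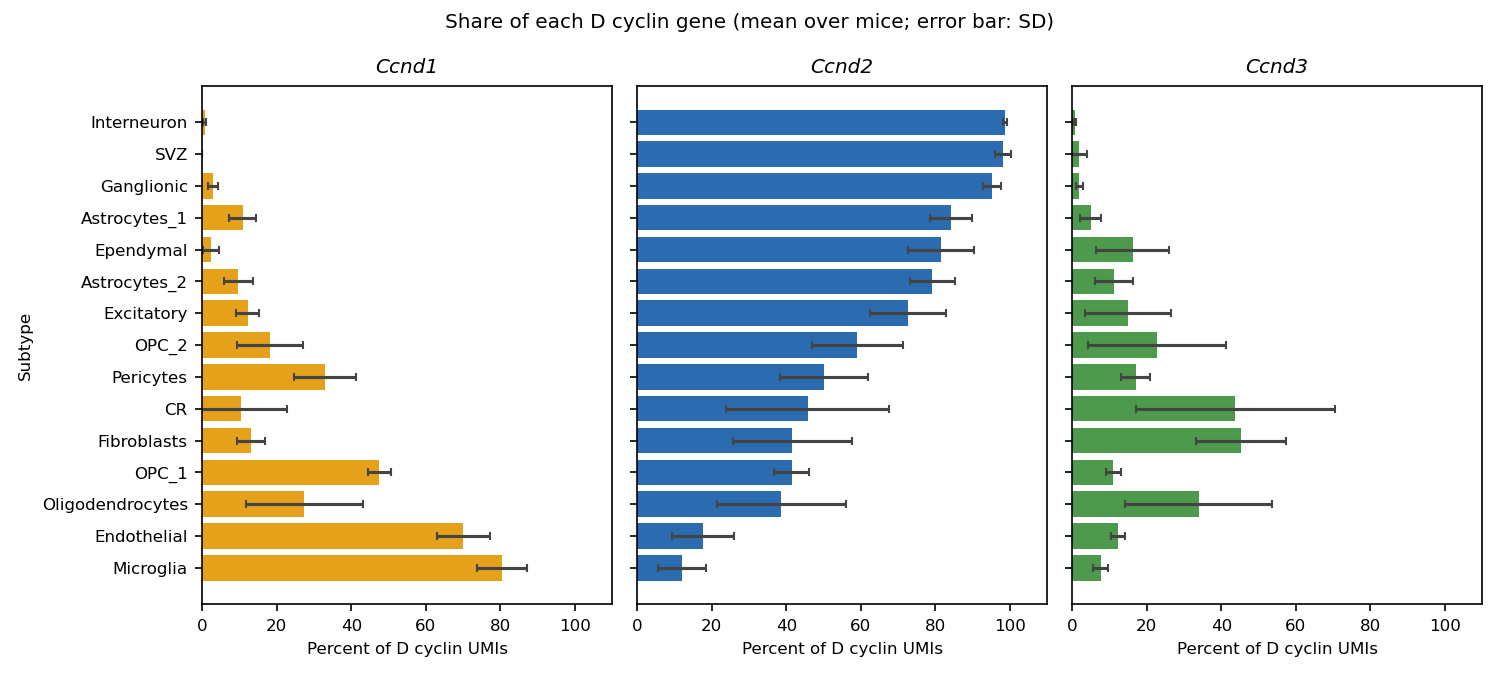
Percent of all D cyclin UMIs (x axis) taken by each D cyclin gene in 15 subtypes, as mean over mice with the SD as error bar. Ccnd2 takes 98.7% in interneurons and Ccnd1 80.5% in microglia.

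Read as shares of the UMIs of the 3 D cyclins, subtypes fell into those led by Ccnd2, those led by Ccnd1 and those that used several. UMIs mark transcript 3′ ends, so these shares compare transcripts without a length correction. Ccnd2 took 95.2% ± 2.36 in ganglionic cells, 98.7% ± 0.455 in interneurons (SD, n = 6 each) and 98.2% ± 2.20 in SVZ cells (n = 4). It took 84.3% ± 5.68 in Astrocytes_1 and 81.6% ± 8.88 in ependymal cells. Ccnd1 took 80.5% ± 6.67 in microglia and 70.1% ± 7.09 in endothelial cells. OPC_1 used both at similar levels, with 47.5% ± 3.11 for Ccnd1 and 41.4% ± 4.61 for Ccnd2. Ccnd3 reached its largest share in fibroblasts at 45.3% ± 12.2 (n = 3).

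Cdk4 was present in every subtype with enough cells, between 84.9 CPM in Cajal-Retzius cells and 845 in OPC_2. OPC_2 and ganglionic cells led with 845 ± 113 (n = 5) and 817 ± 78.3 (n = 6), and they did not differ beyond the spread (0.01 ± 0.18 on the log2 scale). Fmr1-KO 1 was the lowest mouse in ganglionic cells (725) and WT 2 the highest (930). The next subtype, oligodendrocytes, was lower in 6 of 6 mice by 0.90 ± 0.13 (441 ± 70.6). OPC_1 (406), interneurons (395), microglia (224), endothelial cells (168) and excitatory neurons (108) followed.

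Cdk6 was far lower than Cdk4 everywhere. It was 151 ± 94.9 CPM in OPC_2, where single mice ranged from 52.9 to 307, 89.5 ± 21.8 in ganglionic cells and 83.4 ± 55.7 in SVZ cells, and these 3 did not differ beyond the spread. Pericytes (54.4) and microglia (50.9) were next, and the 8 subtypes from ependymal cells to oligodendrocytes held between 1.65 and 9.10. A UMI in 15% of the cells, the filter used for every test, was reached by Cdk6 in ganglionic cells and in none of the other subtypes tested.

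The 3 inhibitors were highest in different cells. Cdkn1a was at 401 ± 138 CPM in microglia, 340 ± 54.5 in endothelial cells and 270 ± 67.3 in ependymal cells, which did not differ beyond the spread, and then dropped by 1.93 ± 0.73 on the log2 scale to Cajal-Retzius cells (68.3) in 5 of 5 mice. In microglia single mice ran from 188 in WT 1 to 590 in WT 2. Cdkn1a was also uneven among mice in Astrocytes_1: WT 3 stood at 105 and the other 5 mice between 14.2 and 23.6.

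Cdkn1b was highest in SVZ cells at 542 ± 241 CPM (n = 4) and in ganglionic cells at 299 ± 95.1 (n = 6), which did not differ beyond the spread. Interneurons (227 ± 76.7) were lower than ganglionic cells in 6 of 6 mice. Other neurons were not all high: excitatory neurons (48.2) and microglia (40.9) had the least, and these 2 did not differ beyond the spread. Cdkn1c (p57) was at 325 ± 173 in fibroblasts (n = 3), 255 ± 57.0 in oligodendrocytes and 139 ± 97.5 in pericytes (n = 6 each), with no neighbours that differed beyond the spread. It was between 3.26 and 6.05 in microglia, both astrocyte subtypes and ependymal cells.

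Genes whose mean log2 level over the 15 subtypes was most like a member's were found by Pearson's r among 8647 genes. This is a description over 15 subtype means that share mice and libraries. For Ccnd2 they included Syne2 (r = 0.826). For Ccnd1 they were Pmf1 (0.885), Ostf1 (0.879) and Mapk14 (0.851), and for Ccnd3 Etfdh (0.955), Golim4 (0.941) and Iars2 (0.896). For Cdk4 they were Ccar1 (0.954), Hnrnpk (0.947) and Top1 (0.936), and for Cdk6 2810474O19Rik (0.849), Trim59 (0.818) and Zfand6 (0.797). The inhibitors were most like Rnf6 (0.907), Bmp2k (0.872) and Tm6sf1 (0.852) for Cdkn1a, Rbm4b (0.964), Maf1 (0.867) and Snrpa (0.864) for Cdkn1b, and Mrpl20 (0.828), Klf13 (0.822) and Adamts4 (0.817) for Cdkn1c.

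The study asked what the loss of Fmr1 changes in each cell type. In ganglionic cells, the comparison that chose the genes, Ccnd2 averaged 3841 ± 1058 CPM in WT and 6038 ± 1184 in Fmr1-KO mice (SD, n = 3 each). The groups overlapped, because WT 1 (5024) lay above Fmr1-KO 3 (4671), but within each bead version every Fmr1-KO mouse lay above every WT mouse. The log2 difference was 0.42 within V2 and 0.53 within V3.8, and the edgeR model with bead version gave 0.47 (SE 0.07). It was 0.65 without the bead version term and between 0.42 and 0.53 when any single mouse was left out. These refits reuse the values that chose Ccnd2, so they are a description and no separate evidence of a difference.

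For the other members in ganglionic cells the log2 differences in that model were -0.22 (SE 0.21) for Ccnd1, 0.00 (SE 0.25) for Ccnd3, -0.11 (SE 0.12) for Cdk4, -0.04 (SE 0.25) for Cdk6 and 0.00 (SE 0.17) for Cdkn1b; Cdkn1a and Cdkn1c were below the filter. Between 70.5% and 79.6% of a mouse's ganglionic cells were called S or G2M by the study, with 70.5% to 74.8% in WT and 72.9% to 79.6% in Fmr1-KO mice. The summed S phase genes were at 5110 to 5193 CPM in WT and 5063 to 6083 in Fmr1-KO mice, and the summed G2M genes at 10224 to 13366 and 10261 to 12430. Summed astrocyte markers were at 945 to 1107 and 897 to 1322, and OPC markers at 289 to 609 and 270 to 371. Summed ganglionic markers were at 3687, 2860 and 2793 in WT 1 to WT 3 and at 3601, 4029 and 3344 in Fmr1-KO 1 to Fmr1-KO 3, with WT 1 above Fmr1-KO 1 and Fmr1-KO 3 and the other WT mice below every Fmr1-KO mouse. Their part in the Ccnd2 difference was not tested.

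**Figure D3:**
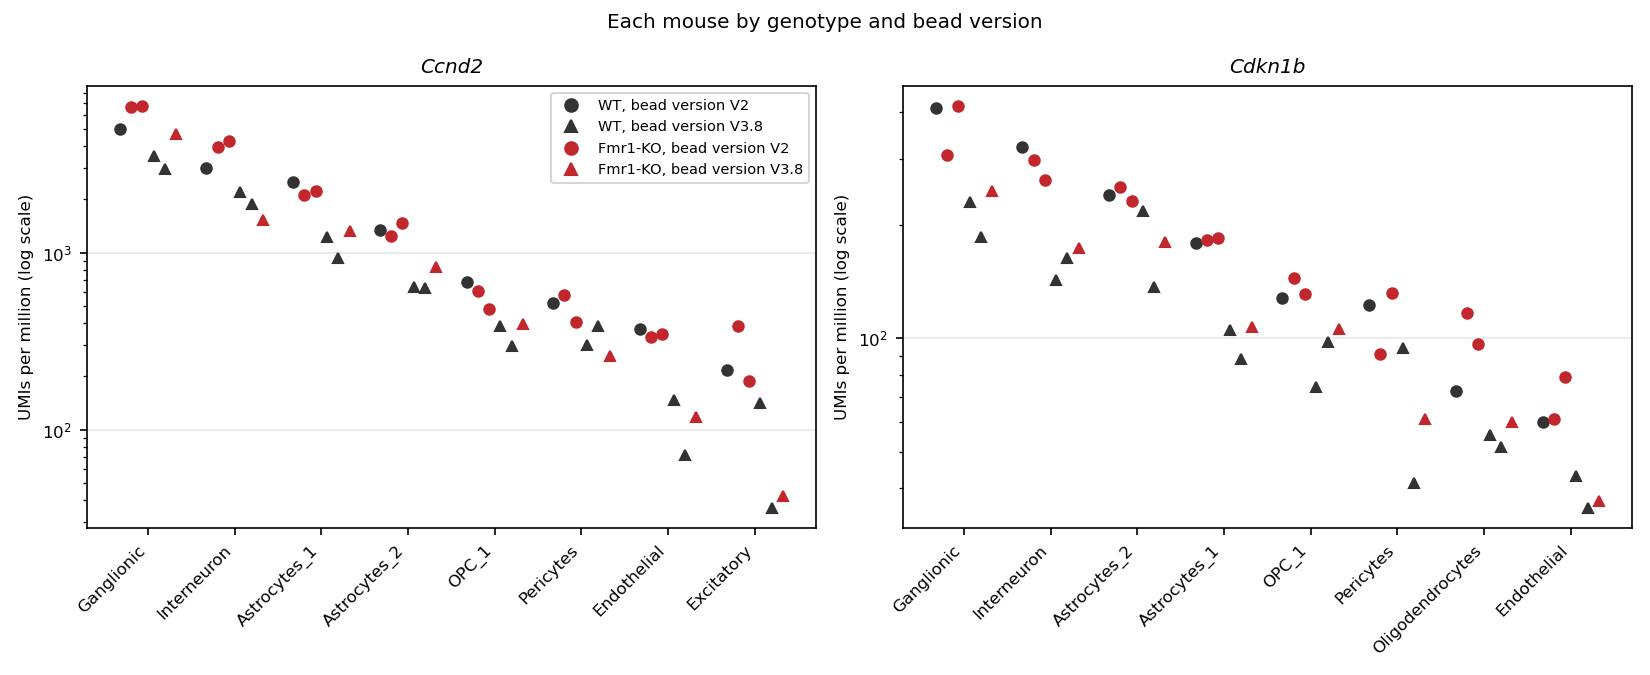
CPM (log axis) of Ccnd2 and Cdkn1b in each mouse and each subtype compared between genotypes where the gene passed the filter. In ganglionic cells red points lie above grey points of the same shape for Ccnd2, and in most subtypes circles (V2) lie above triangles (V3.8).

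In the other 9 subtypes, each with 100 or more cells per genotype, no member was called between genotypes (edgeR quasi-likelihood test, FDR under 0.01 and a log2 difference of at least 0.20). Of all genes and subtypes tested, 0.0115% were called, and none of the 40 member and subtype pairs; DESeq2 called none either. An unadjusted p under 0.05 was found for 2 of the 40 pairs with edgeR and 1 with DESeq2, against 4.89% of all genes tested with edgeR. Differences ran from -0.41 to 0.38 on the log2 scale, with 18 pairs higher and 21 lower in Fmr1-KO mice and 1 at 0.00 when rounded to 2 decimals (Cdkn1b in Astrocytes_2).

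Both pairs were in Astrocytes_1, where 4.72% of genes had an unadjusted p under 0.05. Ccnd3 was at 78.8, 101 and 114 CPM in WT 1 to WT 3 and at 56.5, 62.3 and 92.4 in Fmr1-KO 1 to Fmr1-KO 3, a log2 difference of -0.29 (SE 0.10, unadjusted p = 0.021, adjusted p = 0.92 by edgeR). Cdk4 was at 199, 204 and 167 in WT and 143, 167 and 162 in Fmr1-KO mice, a log2 difference of -0.26 (SE 0.11, unadjusted p = 0.04, adjusted p = 0.92 by edgeR). Neither passed the correction, although both were lower within V2 (-0.41 and -0.36) and within V3.8 (-0.22 and -0.19).

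Cdk4 was lower in Fmr1-KO mice in 8 of 9 subtypes, between -0.30 in endothelial cells and -0.11 in microglia and oligodendrocytes, and 0.05 in excitatory neurons. The 9 values share the same 6 mice and none was called. Ccnd2, the gene that differed in ganglionic cells, was at 3002, 2215 and 1884 in WT interneurons and at 3981, 4311 and 1539 in Fmr1-KO interneurons, so the groups overlapped. That difference was 0.07 (SE 0.14), positive within V2 (0.46) and negative within V3.8 (-0.41). Without Fmr1-KO 3 it was 0.48 (adjusted p = 0.026 by edgeR), which is not past 0.01. Over the 7 tested subtypes Ccnd2 ranged from -0.26 in pericytes to 0.19 in Astrocytes_2.

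A test of whether the genotype difference varied between the 9 subtypes called 0.0168% of 5949 genes and none of the 7 members tested (edgeR F test, FDR under 0.01). No member had an unadjusted p under 0.05 in it. Ganglionic cells were left out of that test, so whether the Ccnd2 difference is particular to them was not tested. Without a filter on low counts 1 further pair was called, Cdkn1a in Astrocytes_1 (log2 difference -1.26, adjusted p = 1.5e-09 by edgeR); it was named after its values were seen, it rests on WT 3 at 105 CPM against 14.2 to 23.6 in the other mice, and with edgeR's own expression filter the adjusted p was 0.98.

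Bead version was compared in the same models, a choice made after seeing the data. Over the 10 subtypes 9.58% of genes were called between V3.8 and V2, and 11 of 46 member pairs. Ccnd2 was lower on V3.8 in 8 of 8 subtypes and called in 7, from -0.58 (SE 0.07) in ganglionic cells to -2.00 (SE 0.47, adjusted p = 0.0056 by edgeR) in excitatory neurons. In pericytes the difference was -0.75 (SE 0.19, adjusted p = 0.029 by edgeR). The ganglionic Ccnd2 value uses the same sums that chose the genes. It is therefore a description without a p, although it is counted among the 7 and the 11 calls. In endothelial cells it was at 372, 332 and 349 CPM in the V2 mice and at 147, 72.2 and 117 in the V3.8 mice, with no overlap.

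Cdkn1b was also lower on V3.8 in 8 of 8 subtypes and called in 3, with log2 differences of -0.80 (SE 0.09) in Astrocytes_1, -0.87 (SE 0.15) in interneurons and -0.76 (SE 0.17) in ganglionic cells and adjusted p between 0.00064 and 0.0022 by edgeR. Ccnd3 was higher on V3.8 in Astrocytes_1 by 0.59 (SE 0.10, adjusted p = 0.0038). Ccnd1, Cdk4, Cdk6, Cdkn1a and Cdkn1c were not called. Leaving out 1 mouse ended the ganglionic Cdkn1b call for 5 of the 6 mice and the Ccnd3 call and the excitatory Ccnd2 call for 4 each. Without WT 1, the only WT mouse on V2, 2 of the 11 calls were left, and without Fmr1-KO 3 there were 7. Of the 3 V2 mice 2 are Fmr1-KO, so plain genotype means of Ccnd2 and Cdkn1b are not balanced for it, and the reagent and the collection batch cannot be told apart.

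Cells with transcripts of division genes were compared with the rest within each subtype and mouse. Cells were thinned to 700 UMIs, and those with 2 or more UMIs of 49 S and G2M phase genes, none of them a member, formed the class with division transcripts. This is a range of a score and not a cell type: in Astrocytes_1, for example, 1230 cells had 2 or more, 401 of them exactly 2, and 1421 of the 5135 without had exactly 1. In the 9 subtypes with both classes, 9 member pairs were higher and 4 lower of 41 tested, while 4.61% of all genes tested were higher and 3.33% lower.

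**Figure D4:**
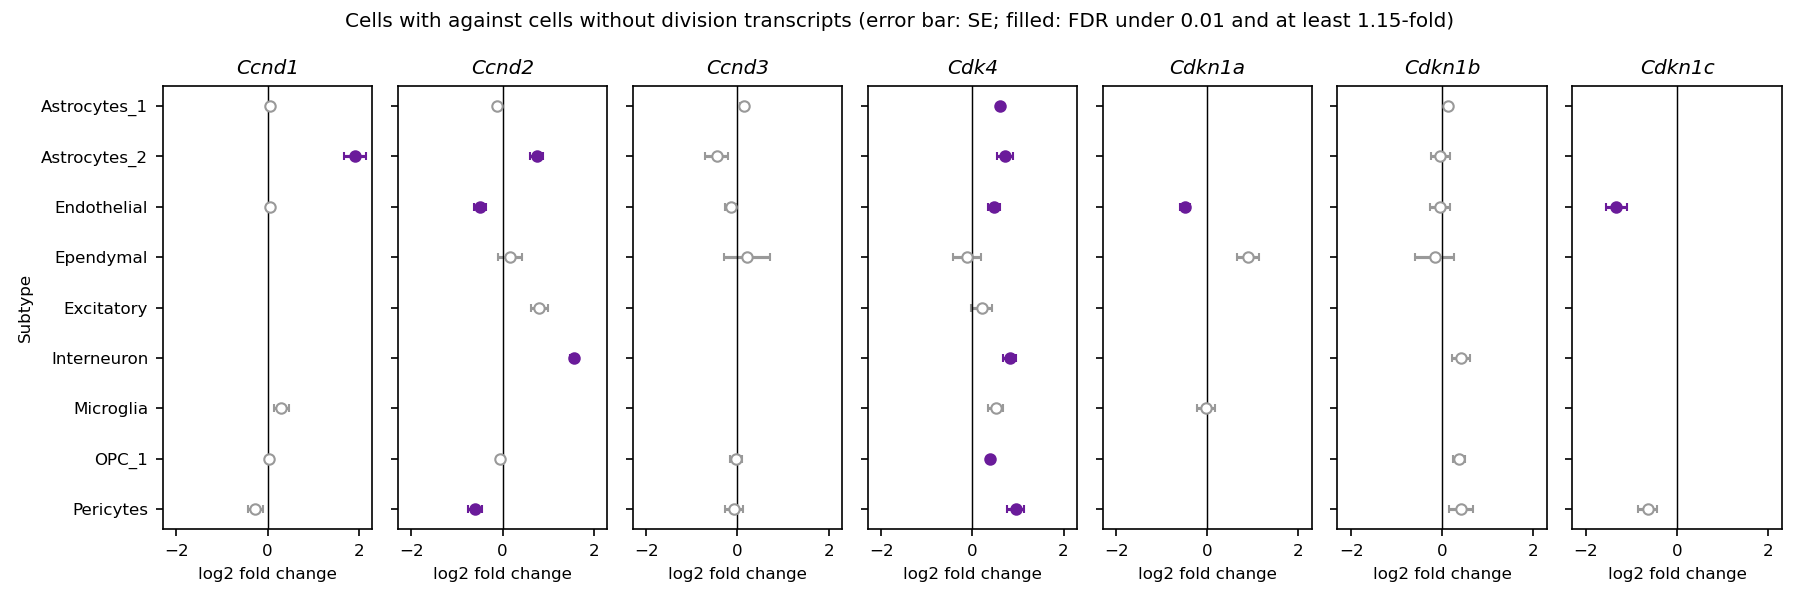
Log2 fold change (x axis) of 7 members between cells with and without division transcripts in 9 subtypes, with the SE as error bar; filled purple points were called and open grey points were not. Cdk4 is to the right of 0 and called in 6 subtypes, while Ccnd2 is called on both sides of 0.

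Cdk4, the catalytic partner, was higher in cells with division transcripts in 6 of 9 subtypes. In Astrocytes_1, where 24.9% of genes were called, it rose by 0.61 (SE 0.06, adjusted p = 1.6e-11 by edgeR), from 157 ± 20.8 to 239 ± 26.9 CPM (SD, n = 6), in 6 of 6 mice. It rose by 0.82 (SE 0.14) in interneurons, 0.39 (SE 0.08) in OPC_1 and 0.95 (SE 0.18) in pericytes, where 2.61%, 13.5% and 4.68% of genes were called. All 3 calls were lost when 1 UMI sufficed for the class and in sums of thinned counts, and the pericyte call also with the study's phases as classes and without Fmr1-KO 3. In interneurons every mouse was higher, from 289 to 365 without and 392 to 1054 with division transcripts, and the classes did not overlap.

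In Astrocytes_2 (7.07% of genes called) Cdk4 rose by 0.71 (SE 0.17) and in endothelial cells (6.74%) by 0.48 (SE 0.13), in 6 of 6 mice each. These 2 calls were the least firm: each was lost under 8 alternatives, among them 4 single mice left out for Astrocytes_2 and the 3 WT mice, each in turn, for endothelial cells. In microglia, where 8.21% of genes were called, the difference was 0.51 (SE 0.17, adjusted p = 0.038 by edgeR) and not called. In ependymal cells (0.932% called) it was -0.12 (SE 0.30) and in excitatory neurons (0.0535% called) 0.20 (SE 0.22).

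Ccnd2 was called in both directions, depending on the subtype. In interneurons it rose by 1.56 (SE 0.08, adjusted p = 3.1e-17 by edgeR), 2.61% of genes being called there. Cells without division transcripts held 2178, 1703 and 1540 CPM in WT 1 to WT 3 and 2761, 3120 and 1123 in Fmr1-KO 1 to Fmr1-KO 3. Cells with them held 5771, 4413 and 6028 in WT and 8860, 7543 and 3316 in Fmr1-KO mice, so every mouse was higher and the classes did not overlap. The call held under 14 of 14 alternatives, with values from 0.98 to 1.97. In the 210 interneurons with division transcripts and the 899 without, Ccnb1, a mitotic cyclin, was at 1.54 and 1.14 CPM, and the inhibitory lineage gene Dlx2 at 791 and 626. Of the 210 cells 129 had exactly 2 UMIs of division genes, and 331 of the 899 had exactly 1. Between these classes 3 of 3 S phase genes tested were higher, and the 1 G2M gene tested was not called.

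In Astrocytes_2 Ccnd2 rose by 0.75 (SE 0.14, adjusted p = 0.00022 by edgeR) in 5 of 6 mice, from 907 ± 314 to 1491 ± 736. Without WT 1, and also in sums of thinned counts, this was not called. In pericytes it fell by 0.61 (SE 0.15, adjusted p = 0.005) in 6 of 6 mice, from 454 ± 147 to 291 ± 91.6. In endothelial cells it fell by 0.49 (SE 0.13, adjusted p = 0.0027) in 5 of 6 mice, from 256 ± 151 to 193 ± 138. The summed thinned counts gave 0.07 in pericytes. The pericyte call was lost without any 1 of Fmr1-KO 1, Fmr1-KO 3 and WT 3, and with 1 or more UMIs. The endothelial call was lost without WT 2 or Fmr1-KO 2, and also with 3 or more UMIs. It was lost too with the study's phases as classes and in sums of thinned counts. The endothelial values ran from -0.65 to -0.32 over the alternatives. DESeq2 called neither the pericyte nor the endothelial difference. In Astrocytes_1 (-0.13, SE 0.04) and excitatory neurons (0.81, SE 0.18) adjusted p was 0.011 and 0.05 by edgeR, and in OPC_1 (-0.06, SE 0.07) and ependymal cells (0.17, SE 0.26) Ccnd2 was not called either. With the study's phases as classes, a choice made after seeing the data, and with 3 or more UMIs required, Ccnd2 was called in Astrocytes_1 (-0.46 and -0.23) and in excitatory neurons (1.21 and 1.23).

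**Figure D5:**
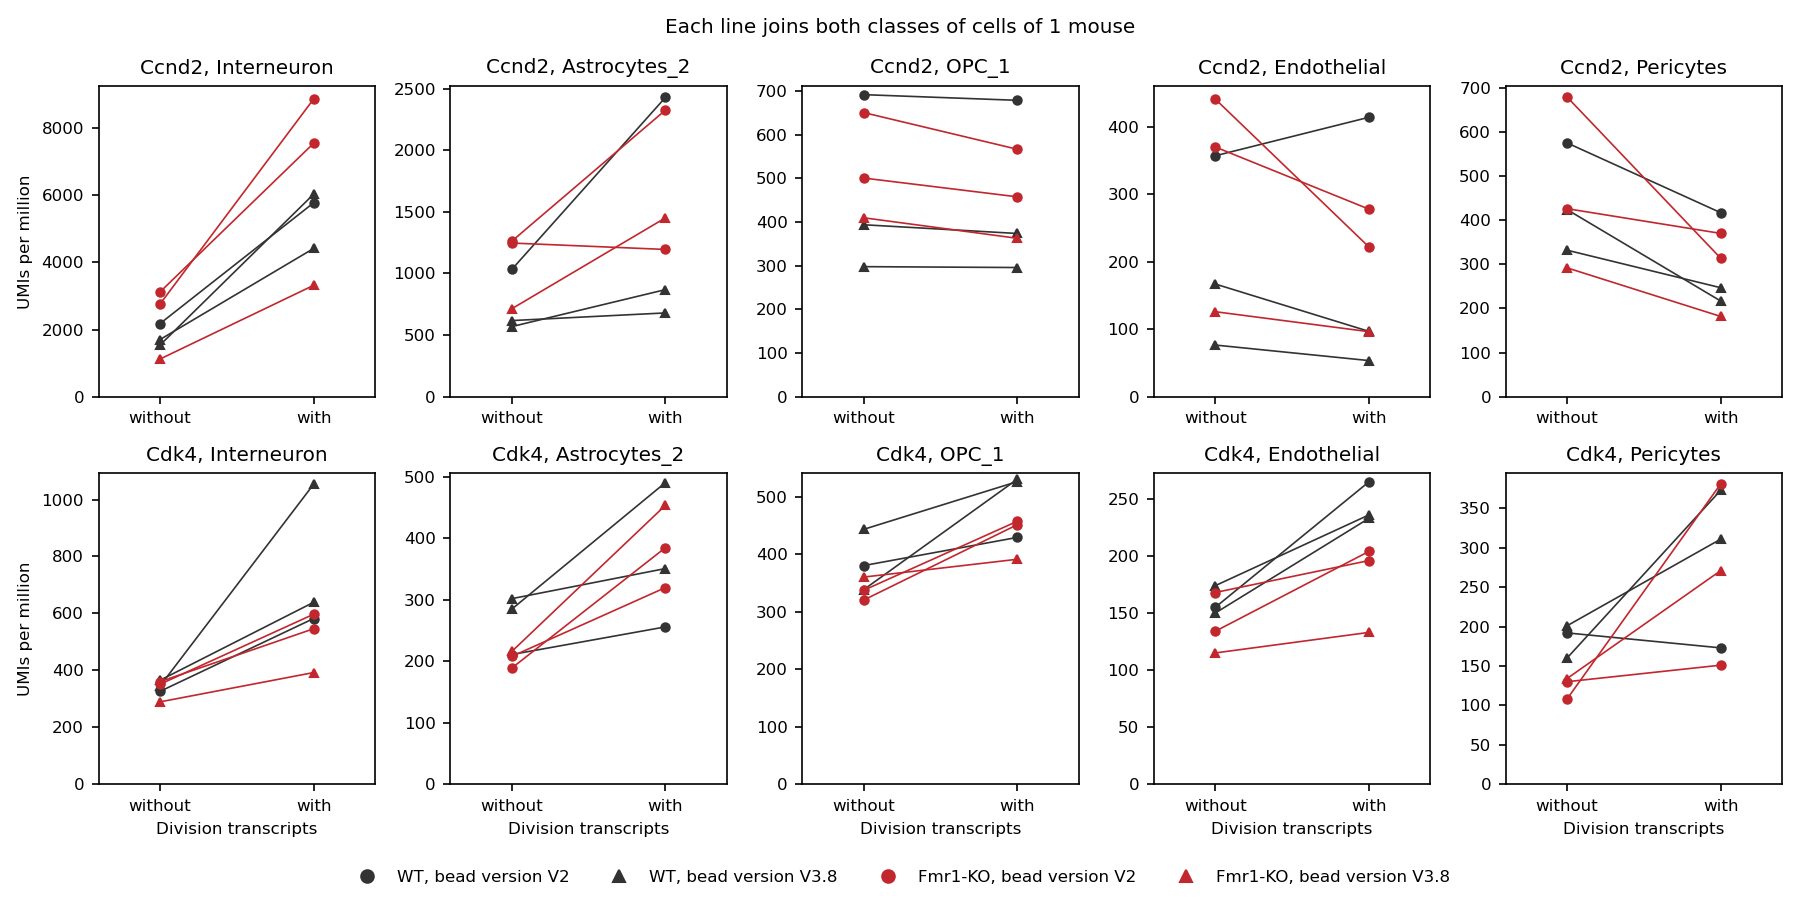
CPM of Ccnd2 (top) and Cdk4 (bottom) in cells without and with division transcripts; each line joins both classes of 1 mouse. Ccnd2 rises in every mouse in interneurons and falls in every mouse in pericytes and OPC_1, while Cdk4 rises in all mice in 4 of the 5 subtypes shown and in 5 of 6 mice in pericytes.

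Of the 6 subtypes tested Ccnd1 was called in Astrocytes_2 alone, where it rose by 1.92 (SE 0.24, adjusted p = 6.7e-07 by edgeR). Cells without division transcripts held 40.0 to 104 CPM and cells with them 37.8 to 715, and WT 3 was the mouse that did not rise. The Ccnd1 call was lost in sums of thinned counts. In OPC_1 and endothelial cells, where Ccnd1 is most abundant, the difference was 0.04 (SE 0.07) and 0.05 (SE 0.07). Ccnd3 was not called in any of 6 subtypes, with values between -0.46 and 0.21.

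Of the inhibitors, Cdkn1c and Cdkn1a were called in endothelial cells and no inhibitor in another subtype. Cdkn1c fell by 1.34 (SE 0.23, adjusted p = 8.5e-07 by edgeR), from 56.5 to 118 CPM without division transcripts to 20.1 to 66.6 with them, in 6 of 6 mice. The Cdkn1c call was lost in sums of thinned counts. Cdkn1a fell by 0.49 (SE 0.10, adjusted p = 8.2e-05), from 374 ± 67.0 to 265 ± 23.9, in 6 of 6 mice. This call was lost without WT 3, with 1 or more UMIs, with the study's phases as classes and in sums of thinned counts, with values down to -0.17. In ependymal cells Cdkn1a was 0.89 (SE 0.24, adjusted p = 0.02) higher in 4 of 4 mice, which did not pass. Cdkn1c in pericytes was -0.65 (SE 0.21, adjusted p = 0.042), and -1.48 and called with 3 or more UMIs. Cdkn1b was not called in any of 7 subtypes; the differences with an unadjusted p under 0.05 were 0.41 (SE 0.19) in interneurons and 0.36 (SE 0.13) in OPC_1, where it was called with 3 or more UMIs (0.46), with the study's phases as classes (0.70) and without WT 3 (0.50).

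Ganglionic cells could not be split this way, since 668 of 682 held division transcripts, and they were split by the study's own phase calls instead, a choice made after seeing the data. The 511 cells called S or G2M (441 of them G2M) were compared with 171 called G1, and 8.11% of 4009 genes were called. Of 18 S phase genes tested, 11 were lower and none higher in the cells called S or G2M, while 29 of 29 G2M genes were higher, so cells called G1 held more S phase transcripts.

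Cdkn1b rose by 0.82 (SE 0.17, adjusted p = 0.00038 by edgeR), from 192 ± 82.4 to 336 ± 97.8 CPM (SD, n = 6), in 6 of 6 mice, and kept the call under 11 of 11 alternatives. Cdk4 fell by 0.37 (SE 0.10, adjusted p = 0.0097), from 992 ± 144 to 756 ± 62.2, in 6 of 6 mice, but 10 of 11 alternatives lost this call, leaving out any single mouse included. Ccnd2 was -0.13 (SE 0.07) and not called, at 5335 ± 1836 and 4823 ± 1527. Ccnd1 (-0.75, SE 0.24), Ccnd3 (-0.68, SE 0.27) and Cdk6 (-0.59, SE 0.25) had adjusted p of 0.03, 0.097 and 0.14, and Ccnd1 was called without Fmr1-KO 1 (-0.92) and without WT 3 (-0.97).

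Other genes of the pathway were counted from lists. Between genotypes none of their members was called in the 9 subtypes: 0 of 5 INK4 pairs, 0 of 13 Rb and E2F pairs, 0 of 6 pairs of later cyclins and kinases, 0 of 50 pairs of cyclin D and p27 turnover and 0 of 42 p53 target pairs, beside 0 of 38 S phase and 0 of 37 G2M pairs. Between cells with and without division transcripts, the later cyclins and kinases rose in 6 of 8 pairs, beside 4.61% of all genes higher. Cdk1 rose by 2.12 (SE 0.14) in endothelial cells and Ccnb2 by 2.45 (SE 0.29) in microglia. In these 2 subtypes 6.74% and 8.21% of genes were called. The S phase genes (37 of 42 pairs) and G2M genes (41 of 48) that define the class rose by its rule.

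Rb and E2F genes rose in 7 of 15 pairs and fell in none, against 4.61% of all genes higher and 3.33% lower over the subtypes and 24.9% called in Astrocytes_1, where 2 of the 7 pairs lie. Among them Tfdp1, the dimer partner of E2F factors, rose in 4 subtypes, from 0.76 (SE 0.11) in OPC_1 to 1.47 in Astrocytes_2 (SE 0.30) and microglia (SE 0.24). E2f5 rose by 0.48 (SE 0.08) in Astrocytes_1 and 0.80 (SE 0.16) in OPC_1, and E2f7, a repressor, by 1.80 (SE 0.42) in ependymal cells.

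The INK4 inhibitors bind Cdk4 and Cdk6 and not the cyclin. Of 4 INK4 pairs tested 2 were higher and 1 lower, beside 4.61% of all genes higher and 3.33% lower. Cdkn2d rose by 1.35 (SE 0.11) in Astrocytes_1 and 2.26 (SE 0.24) in pericytes, and Cdkn2b fell by 0.86 (SE 0.19) in endothelial cells. In these 3 subtypes 24.9%, 4.68% and 6.74% of genes were called. In ganglionic cells called S or G2M, Cdkn2d was higher by 2.84 (SE 0.30) and Cdkn2c by 1.57 (SE 0.28), and E2f1 fell by 1.25 (SE 0.21). These were 2 of 2 INK4 genes and 1 of 7 Rb and E2F genes tested, beside 8.11% of all genes called.

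Of the turnover genes, Cks1b, the cofactor that helps the ubiquitin ligase of p27, rose in 4 subtypes by 1.73 to 2.94 and was the only gene called; its 4 of 51 pairs stand beside 4.61% of all genes higher. Of 43 p53 target pairs 3 fell and none rose, beside 3.33% of all genes lower and 24.9% and 6.74% called in Astrocytes_1 and endothelial cells, where the 3 lie: Btg2, an antiproliferative gene, fell by 0.38 (SE 0.05) in Astrocytes_1 and 0.43 (SE 0.11) in endothelial cells, and Pmaip1 fell by 0.52 (SE 0.14) in endothelial cells. Btg2 also fell by 0.98 (SE 0.17) in ganglionic cells called S or G2M.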

How the data were processed

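Per the labels and the study's methods, reads were demultiplexed with bcl2fastq, aligned to mm10 with TopHat2 2.0.14 and counted per gene with ESAT, ignoring reads that map to several places. The deposited values are raw UMI counts per gene and cell, with the authors' subtype, phase and doublet annotation. The members and lists were chosen with earlier results of these data known.

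UMI counts were summed per mouse and subtype, doublets left out, and tested with edgeR 4.0.16 (quasi-likelihood, TMM, Benjamini-Hochberg over all genes tested), with bead version as covariate between genotypes and the mouse as block between classes of cells. Genes had a UMI in 15% of a subtype's cells, and mice had 10 or more cells. A call was an FDR under 0.01 and a log2 difference of at least 0.20. Levels are CPM, and log2 ratios of levels add 0.5. Neighbours in an order differ beyond their spread where the mean log2 ratio within mice exceeds its SD and has 1 sign. Named pairs were called or had an unadjusted p under 0.05; from other lists, called genes, at most the 4 with the smallest p per list and subtype; pattern genes, the 3 with the highest r among genes with a mean of 20 CPM or more. Alternatives included DESeq2 1.42.0, other filters and scalings, and each mouse left out. Protein sequences were not used here. Tests were also run on simulated counts with 1 dispersion for all genes and no bead version effect. Those runs do not give the power of the tests in these data. Each sample is 1 mouse. Some pattern genes and markers are not reported here.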

Additional observations from a re-analysis of the deposited data

Results flagged for a closer look

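When cells with division transcripts were set against cells without, every mouse had a higher Ccnd2 level in interneurons (log2 fold change 1.56) and every mouse a lower one in pericytes (-0.61) and in OPC_1 (-0.06), gaps of 2.17 and 1.62 on the log2 scale. The OPC_1 value lay within its error (SE 0.07) and was not called. The pericyte value was not called by DESeq2 and was 0.07 in sums of thinned counts. Cdkn1a was higher in 4 of 4 mice in ependymal cells (0.89) and lower in 6 of 6 mice in endothelial cells (-0.49), a gap of 1.38; the ependymal value was not called (adjusted p = 0.02 by edgeR). These gaps between cell types were not tested.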

How the results depend on the processing

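No member was called between genotypes under any alternative but the lack of a filter on low counts, which gave 1. The replicate number as a block in place of bead version gave 0 as well, and leaving out each mouse gave 0; same-numbered mice deviated together for numbers 1 and 3 (correlations 0.16 to 0.76) but not for number 2 (-0.52 to -0.07), and mice numbered 1, like those numbered 3, share a bead version while those numbered 2 do not, so the number was not taken as a pairing. No member's genotype difference varied between subtypes under any alternative (0 with each mouse left out). The 13 calls between cells with and without division transcripts became 6 with 1 or more UMIs and 2 with sums of thinned counts, which hold fewer UMIs, and 10 to 11 with each mouse left out; Ccnd2 in pericytes reversed to 0.07 in the thinned sums. The 11 bead version calls became 2 to 11 with each mouse left out, and Cdkn1b in Astrocytes_2 reversed to 0.07 in thinned cells. The 2 phase calls became 1 with DESeq2, with edgeR's filter, without a filter and with 1 cell per barcode and mouse, and 1 to 2 with each mouse left out, where Cdk4 was never called and the second call, without Fmr1-KO 1 or WT 3, was Ccnd1. The 17 neighbouring steps in level that exceeded their spread became 27 in WT mice alone, where fewer mice had to share a direction. The other causes were not tested. With 1 cell kept per barcode and mouse, an alternative chosen after seeing the data like the phase calls used as classes, the counts were 0 between genotypes, 13 for division transcripts, 11 for bead version and 17 for levels.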
